A study of Mus musculus with 12 samples.

Results

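The secreted and membrane-anchored metalloproteinase genes of the Mmp, Adam and Adamts families were followed in mouse fat after a single injection of epinephrine. Members were all genes of the deposited count table whose symbol starts with Mmp, Adam or Adamts followed by a digit, which gave 76 of 27179 genes: 23 Mmp, 34 Adam and 19 Adamts. The tissue was the epididymal white fat pad of 12 male C57BL/6J mice fed chow, with no genetic change labelled. The 6 vehicle mice received saline into the peritoneum and are listed at 12 to 17 weeks of age. The other 6 received 0.5 mg/kg sodium epinephrine by the same route and are listed at 18 to 23 weeks. Tissue was collected 1 h after the injection in both groups. The listed ages do not overlap between the groups, so age and treatment cannot be told apart from the labels. They rise by 1 week from each library to the next, in the order of the sample list, so a fit with listed age as a covariate is also a fit with that order.

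These enzymes hold a zinc ion in the active site and are made as proenzymes whose propeptide is removed before they cut. Matrix metalloproteinases (MMPs) cut collagens and other matrix proteins. ADAMs are membrane proteins that release the outer part of growth factors, cytokine precursors and receptors from cells, and many members of the family are known from sperm maturation and fertilization. ADAMTS enzymes are secreted, carry thrombospondin repeats and cut proteoglycans such as versican and aggrecan, or trim procollagens. Tissue inhibitors of metalloproteinases (TIMPs) block the enzymes once they are active. In fat, the matrix around adipocytes is remodelled by such enzymes when the depot grows or shrinks. RNA levels say nothing of how much enzyme is active.

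Library totals ran from 24821601 to 34405433 counted reads. Adipocyte marker genes were high in all 12 libraries, with summed levels of 11016 to 34394 CPM, read counts scaled to a common library size, in vehicle and 14012 to 32060 in epinephrine, and none of the 7 was called different. Epididymal RNA varied far more widely. Gpx5, a glutathione peroxidase secreted by the epididymis, took from 0.000375% to 1.98% of counts and passed 0.5% in vehicle 2, epinephrine 1 and epinephrine 2. Vehicle 2 and epinephrine 1 also had the lowest adipocyte sum of their groups, and epinephrine 2 the next lowest of its group. The median adipocyte sums were 28144 CPM in vehicle and 29847 in epinephrine. The summed level of 14 epididymal genes ran from 8.14 to 34363 CPM in vehicle and from 20.0 to 26451 CPM in epinephrine, so both groups held libraries at either end. None of the 13 epididymal genes tested was called different between the groups.

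Per length of gene, the members spanned several orders of magnitude in vehicle fat. CPM were scaled between libraries with TMM factors and divided by gene length in kilobases (RPKM) for comparisons between genes. Of the 50 members abundant enough to test, 17 had a vehicle mean of at least 10 RPKM, 17 lay between 1 and 10 RPKM, and 16 lay under 1 RPKM. Outside the epididymal gene Adam7, the highest vehicle medians were 112 RPKM for Adam15, a membrane ADAM, 44.3 RPKM for Mmp14, the membrane-type MMP that activates pro-MMP2, and 41.7 RPKM for the gelatinase Mmp2. Next came 38.9 RPKM for the sheddase Adam9 and 38.6 RPKM for Adamts2, which trims procollagen. The vehicle ranges of Mmp14 (37.2 to 53.5 RPKM), Mmp2 (21.6 to 50.3 RPKM) and Adam9 (29.99 to 45.3 RPKM) overlapped, so the order among these neighbours is within the spread. By median, Adamts1 had rank 10 in vehicle at 19.4 RPKM and rank 2 in epinephrine at 113 RPKM.

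**Figure D1:**
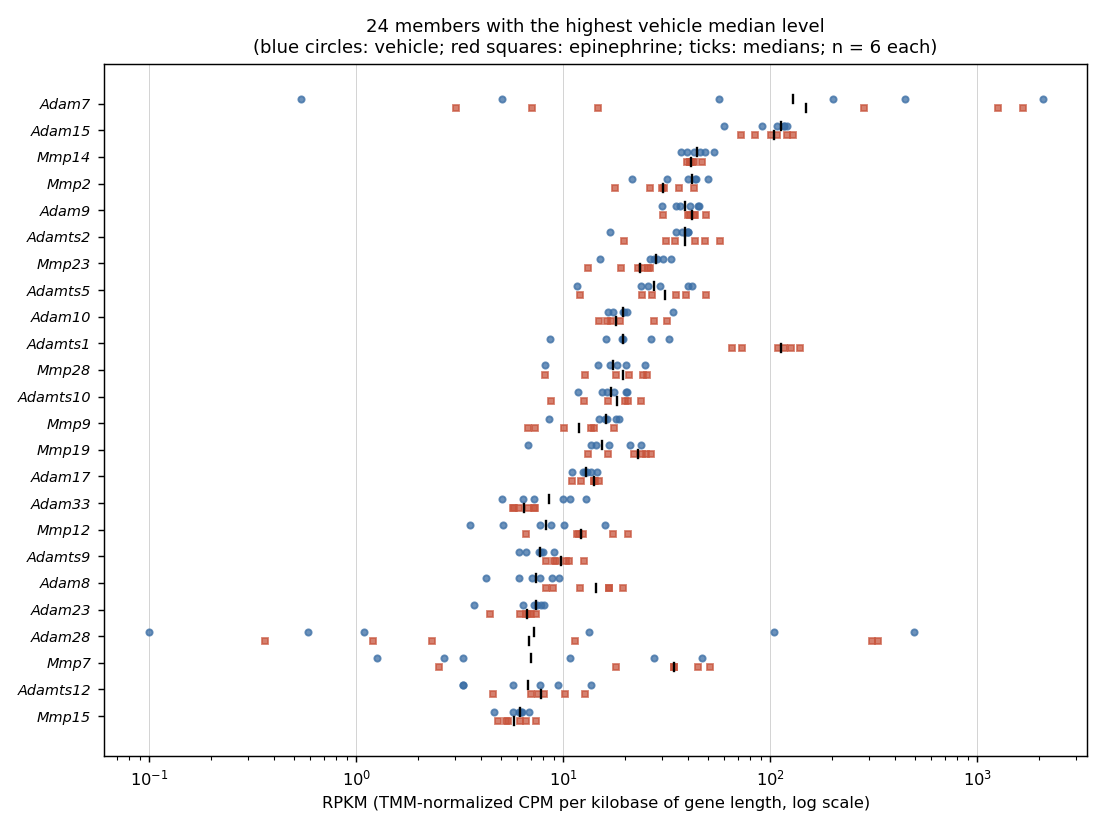
Level per length of the 24 members with the highest vehicle median, in RPKM on a log scale, with a point for each library (blue circles vehicle, red squares epinephrine) and a tick at each median. Adam7, Adam28 and Mmp7 spread widely within both groups, whereas the Adamts1 points of the groups are apart.

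The remaining 26 members were too low to test, with 2 to 199 counts over all 12 libraries, and 16 of them belong to the testis and epididymis ADAMs. All 4 collagenases were among the untested. The neutrophil collagenase Mmp8 was the most counted of them, with 6, 1, 6, 12, 24 and 59 reads in vehicle 1 to 6 and 23, 9, 42, 4, 6 and 7 in epinephrine 1 to 6. The highest counts came from vehicle 6 and epinephrine 3, and the groups overlapped. The other collagenase with over 100 reads was Mmp13, at 111 in total.

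Few of the tested members differed between epinephrine and vehicle fat. With edgeR's quasi-likelihood test and an adjusted p threshold of 0.05, 4 of 50 members were called (8.0%), beside 6.23% of all 16175 tested genes. Adamts1 was higher, 1 of 50 (2.0%) beside 2.65% of all genes. Mmp11, Adam1a and Adamts15 were lower, 3 of 50 (6.0%) beside 3.58%. These shares lie close to those of all genes. With the replicate number as a block, 2 members were higher (Adamts1 and Adam8) and 2 lower (Mmp11 and Adam1a). The shares above belong to the fit without the block. The share of all genes called with the block is not given here, so these counts are not a result about the family. The groups did not overlap in CPM for 3 members (6.0%), beside 4.79% of all tested genes. Of these, Adamts1 was higher, as were 2.04% of all genes, and Mmp11 and Adam1a were lower, as were 2.74%. The median log2 fold change was 0.09 over the 50 members and -0.00 over all genes, with 32 members above 0 and 18 below. In bulk tissue, fewer cells of a type and less RNA per cell cannot be told apart.

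**Figure D2:**
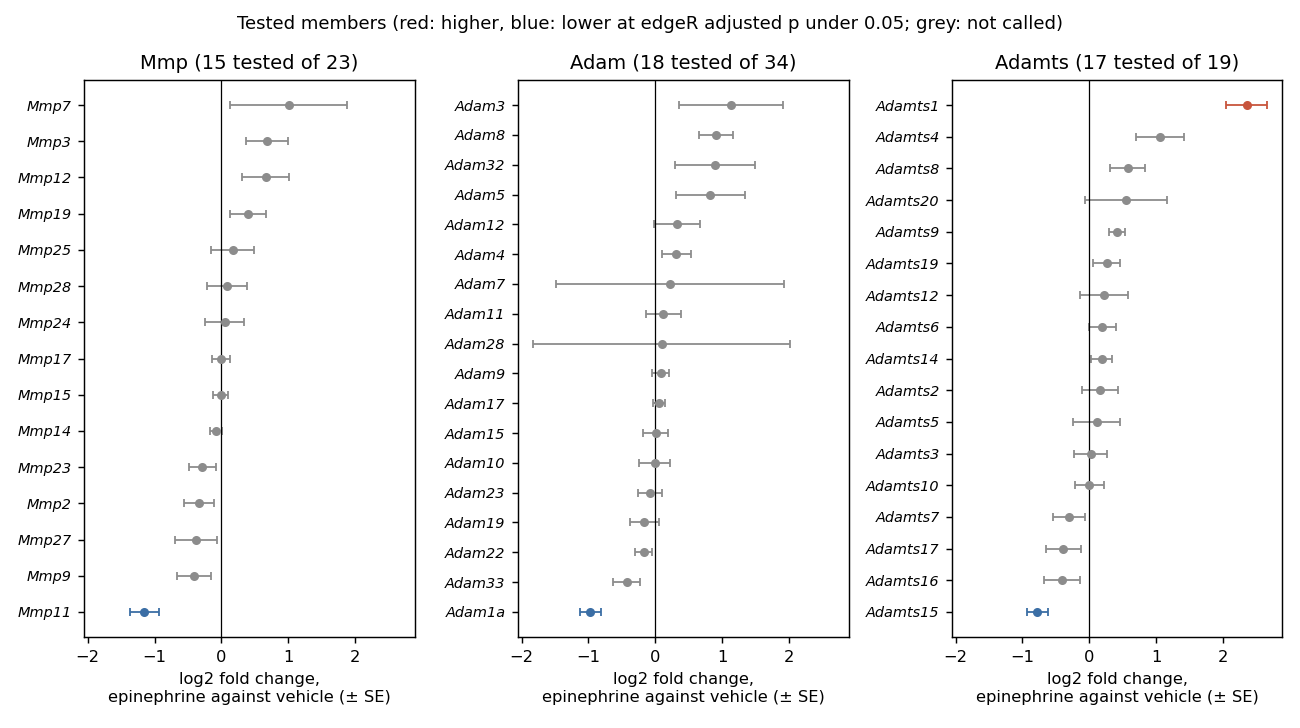
Log2 fold change of each tested member with its standard error, epinephrine against vehicle, in panels for the Mmp (15 of 23 tested), Adam (18 of 34) and Adamts (17 of 19) genes. Adamts1 is the red point at 2.36, and the blue points are Mmp11, Adam1a and Adamts15.

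The ADAMTS enzymes that cleave large hyaluronan-binding proteoglycans such as versican and aggrecan form a class of 7, all tested. Of these, 2 were called (28.6%), beside 6.23% of all tested genes, and the class share was not tested. Adamts1 rose, Adamts15 fell and the 5 others did not pass the test. Adamts1 (Entrez 11504, chr16:85793827-85803113 on GRCm38.p6) encodes a secreted protease that is best known as a hormone-induced gene of the ovary. Its vehicle libraries lay between 42.3 and 158 CPM with a median of 94.7, and its epinephrine libraries between 318 and 679 CPM with a median of 553. Every epinephrine library was above every vehicle library. The means were 99.8 ± 40.3 and 513 ± 144 CPM (SD, n = 6 each), a 5.14-fold rise (log2 fold change 2.36 ± 0.31 SE, adjusted p = 0.000903 by edgeR). The log2 fold change was 2.43 without the 3 libraries with Gpx5 above 0.5% (edgeR adjusted p = 0.000125). With listed age as a covariate it was 1.06 (edgeR adjusted p = 0.066), which ends the call. In numbers 4 to 6 alone it was 2.29 (edgeR adjusted p = 0.0022), and in numbers 1 to 3 alone it was 2.50 (edgeR adjusted p = 0.226), a split in which 0 of all genes were called.

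The promoter of Adamts1 is shown because it belongs to the only member that rose. The window runs from 250 bases before the RefSeq start site to 50 after it (chr16:85803064-85803363, minus strand, GRCm38.p6). Capitals mark TGACG, the short form of the cyclic AMP response element, 170 bases before the start, and the TATA box TATAAA, 32 bases before it.
Adamts1: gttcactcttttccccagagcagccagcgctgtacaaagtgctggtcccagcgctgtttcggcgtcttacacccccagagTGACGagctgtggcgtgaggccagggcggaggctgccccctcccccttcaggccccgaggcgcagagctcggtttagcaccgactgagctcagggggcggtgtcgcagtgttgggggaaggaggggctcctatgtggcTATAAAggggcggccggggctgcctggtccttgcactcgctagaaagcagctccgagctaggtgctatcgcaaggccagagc

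Promoter windows were found in RefSeq (GRCm38.p6) for 46 of the 76 members. TGACG, searched on both strands, was present in 5 of the 46 (10.9%: Adam10, Adamts1, Adamts12, Adamts3 and Adamts9) and in 20.8% of all 32851 windows of the same length. All 5 of these members were tested, and Adamts1 was the 1 called. The full palindrome TGACGTCA, which contains TGACG, was in 0 of the 46 and in 1.79% of all windows. TATAAA, searched on the gene's strand, was in 11 of the 46 (23.9%) and in 8.32% of all windows. A member counted when any of its windows held the motif, whereas the shares of all windows are per window. Members with several windows thus had more chances of a match. A match is a run of letters in the window and was not tested as a binding site.

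Adamts15 (Entrez 235130, chr9:30899155-30922452), a versican-cleaving enzyme, went the other way. Vehicle libraries lay between 28.3 and 48.9 CPM, and epinephrine libraries between 18.1 and 29.2 CPM. The groups overlapped only where epinephrine 2 (29.2 CPM) was above vehicle 2 (28.3 CPM). The mean fell from 38.5 ± 8.40 to 22.4 ± 3.99 CPM (n = 6 each), to 58.2% of vehicle (log2 fold change -0.78 ± 0.16 SE, adjusted p = 0.0122 by edgeR). With the replicate number as a block the log2 fold change was -0.77 (edgeR adjusted p = 0.0798), which ends the call. It was -0.38 in numbers 1 to 3 alone (edgeR adjusted p = 0.647) and -1.16 in numbers 4 to 6 alone (edgeR adjusted p = 0.00786). With listed age as a covariate it was -0.83 (edgeR adjusted p = 0.0651).

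Each of these genes lies beside another member of the class. Adamts5 (chr16:85858157-85901125), the main aggrecanase of mouse cartilage, neighbours Adamts1 and was the higher of the pair in vehicle fat at 28.8 ± 11.2 RPKM against 20.4 ± 8.25. Its level was 233 ± 90.9 CPM in vehicle and 252 ± 105 CPM in epinephrine (log2 fold change 0.11 ± 0.35 SE, adjusted p = 0.944 by edgeR). Adamts8 (chr9:30942562-30963838), beside Adamts15, measured 0.858 ± 0.316 and 1.28 ± 0.279 CPM (log2 fold change 0.57 ± 0.26 SE, adjusted p = 0.286 by edgeR). Whether neighbouring genes responded differently was not tested.

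Of the other proteoglycan-cleaving genes, Adamts4, an aggrecanase, lay between 4.23 and 19.8 CPM in vehicle and between 16.3 and 36.3 CPM in epinephrine. Its means were 11.2 ± 6.23 and 23.3 ± 7.44 CPM (log2 fold change 1.06 ± 0.36 SE, adjusted p = 0.124 by edgeR). The 2 groups overlapped, and the difference passed the threshold in 3 of 26 alternatives, among them DESeq2 (adjusted p = 0.0339). Adamts9, a versican-cleaving enzyme with a very long chain of thrombospondin repeats, measured 45.5 ± 6.22 and 60.5 ± 9.25 CPM (log2 fold change 0.41 ± 0.12 SE, adjusted p = 0.0605 by edgeR) and passed in 6 of 26. Adamts20 was near the limit of detection in both groups, at 0.475 and 0.690 CPM. Of the 7 genes of this class, 6 had a log2 fold change above 0, with a median of 0.55. Over all tested genes the median was -0.00, with 50.2% below 0.

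**Figure D3:**
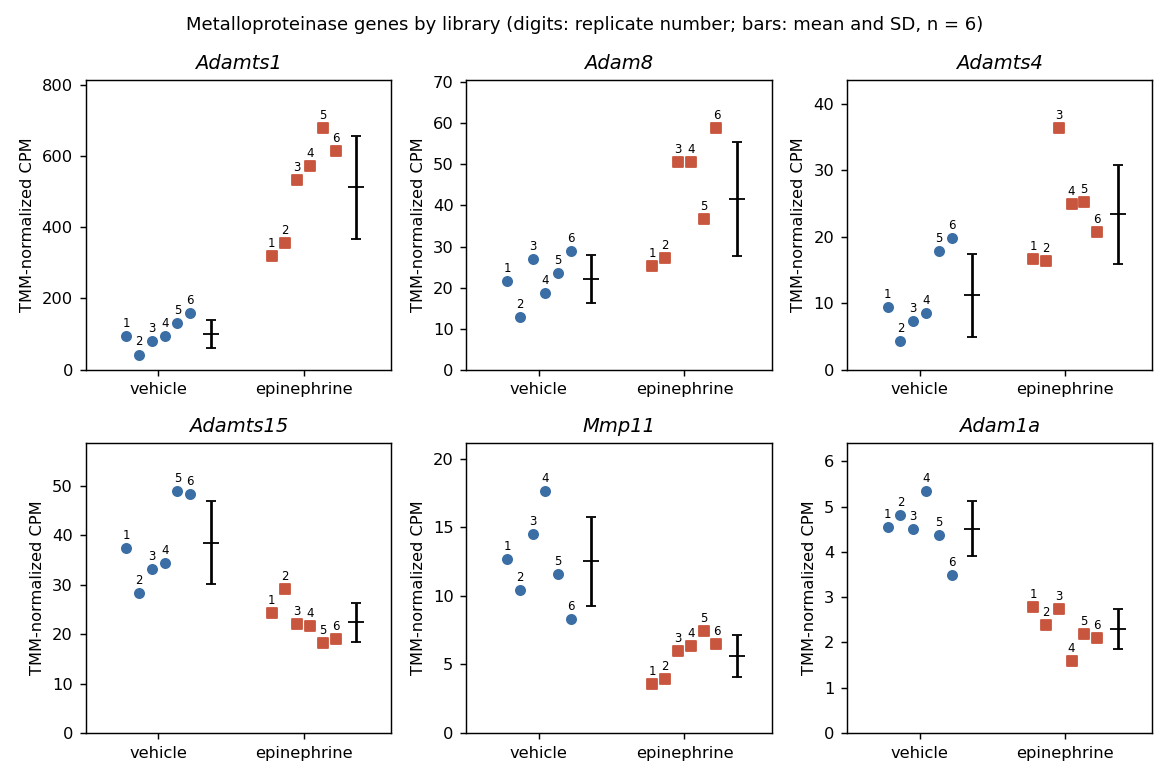
TMM-normalized CPM of 6 members in each library, with the replicate number above each point and the mean and SD of 6 libraries beside each group. Adamts1, Mmp11 and Adam1a show no overlap between the groups, whereas Adam8, Adamts4 and Adamts15 overlap.

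No other ADAMTS class held a called member. All 3 procollagen N-proteinases were tested, and the most abundant, Adamts2, measured 131 ± 33.9 CPM in vehicle and 146 ± 50.04 in epinephrine (log2 fold change 0.16, edgeR adjusted p = 0.874). Adamts12, which cleaves cartilage oligomeric matrix protein, measured 44.8 ± 24.8 and 52.2 ± 17.6 CPM (log2 fold change 0.22, edgeR adjusted p = 0.879). Adamts10, which binds fibrillin microfibrils, measured 69.0 ± 13.1 and 69.2 ± 22.5 CPM (log2 fold change 0.00, edgeR adjusted p = 0.999).

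Mmp11 was the only Mmp gene of 15 tested that passed. It encodes stromelysin-3, which is activated inside the cell by furin and is known to restrain fat cell differentiation in mice. Mmp11 (Entrez 17385, chr10:75923221-75932502) lay between 8.32 and 17.6 CPM in vehicle, with a median of 12.1, and between 3.57 and 7.46 CPM in epinephrine, with a median of 6.15. Every epinephrine library was below every vehicle library. The mean fell from 12.5 ± 3.25 to 5.64 ± 1.53 CPM (n = 6 each), to 45.0% of vehicle (log2 fold change -1.15 ± 0.22 SE, adjusted p = 0.00973 by edgeR). The log2 fold change was -1.46 in numbers 1 to 3 alone (edgeR adjusted p = 0.248) and -0.89 in numbers 4 to 6 alone (edgeR adjusted p = 0.0913). Neither subset of 3 against 3 passed by itself, but in numbers 1 to 3 alone no gene at all was called. In the GENCODE vM21 annotation, exons of Chchd10 on the opposite strand cover 5.58% of the exon bases of Mmp11. Chchd10 measured 39.2 ± 7.88 and 38.5 ± 11.3 CPM (edgeR adjusted p = 0.981).

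The gelatinases and membrane-type MMPs did not pass the test. Mmp2, which cuts basement membrane and denatured collagen, lay between 65.7 and 153 CPM in vehicle and between 54.4 and 130 CPM in epinephrine. Its means were 117 ± 31.2 and 93.3 ± 25.9 CPM (log2 fold change -0.33 ± 0.23 SE, adjusted p = 0.555 by edgeR). In numbers 4 to 6 alone its log2 fold change was -0.51 (edgeR adjusted p = 0.0278). Mmp9, a gelatinase of leukocytes, measured 48.2 ± 11.3 and 36.4 ± 13.4 CPM (log2 fold change -0.41 ± 0.26 SE, adjusted p = 0.499 by edgeR). Mmp14 varied little between mice, at 116 ± 15.5 and 110 ± 6.67 CPM (log2 fold change -0.08 ± 0.09 SE, adjusted p = 0.782 by edgeR). Mmp23, an MMP with a cysteine-rich toxin-like domain, measured 38.4 ± 8.95 and 31.4 ± 7.17 CPM (log2 fold change -0.29, edgeR adjusted p = 0.563).

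Matrilysin and metalloelastase varied widely among the mice of each group. Mmp7, a small MMP of epithelia, measured 24.2, 41.1, 9.43, 1.11, 2.34 and 2.89 CPM in vehicle 1 to 6. In epinephrine 1 to 6 it measured 15.8, 30.3, 30.1, 2.20, 44.8 and 39.4 CPM. The groups overlapped over most of their range (log2 fold change 1.01 ± 0.88 SE, adjusted p = 0.677 by edgeR). Mmp12, the macrophage elastase, measured 30.7 ± 15.6 and 48.7 ± 17.7 CPM (log2 fold change 0.66 ± 0.35 SE, adjusted p = 0.385 by edgeR). Summed macrophage markers overlapped too, at 379 to 859 CPM in vehicle and 324 to 947 in epinephrine, and their part in the Mmp12 level was not tested.

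Of the Mmp genes, 10 lie together on chromosome 9 (chr9:7272514-7699585), and 4 of these were tested: Mmp3, Mmp7, Mmp12 and Mmp27. Several genes of this cluster are textbook targets of AP-1, the Fos and Jun factor, whose motif TGANTCA was searched on both strands. It was present in 13 of the 46 members (28.3%), counted over any of their windows, and in 7.81% of all windows. The 13 were 8 Mmp, 5 Adam and 0 Adamts genes. Stretches of 60 bases around the motif are shown for 4 genes of the cluster, with the motif in capitals. They lie on the plus strand at chr9:7445750-7445809 for Mmp3, chr9:7347304-7347363 for Mmp12, chr9:7272453-7272512 for Mmp13 and chr9:7502253-7502312 for Mmp10.
Mmp3: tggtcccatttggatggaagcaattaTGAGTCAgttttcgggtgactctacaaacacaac
Mmp12: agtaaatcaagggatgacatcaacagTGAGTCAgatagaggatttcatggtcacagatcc
Mmp13: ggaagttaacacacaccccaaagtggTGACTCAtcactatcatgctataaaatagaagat
Mmp10: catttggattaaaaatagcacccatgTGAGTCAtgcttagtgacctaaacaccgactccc

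The motif starts 46, 44, 35 and 63 bases before the start site of Mmp3, Mmp12, Mmp13 and Mmp10. Of the 13 members that hold it, 4 were tested (Mmp3, Mmp7, Mmp12 and Adam19) and 0 were called by edgeR. Mmp3 was the only 1 of the 4 with an unadjusted p under 0.05, which 17.2% of all tested genes had. DESeq2 called 0 of the 4, and limma-voom called Mmp3. Mmp3, stromelysin-1, measured 1.72 ± 0.578 CPM in vehicle and 2.76 ± 0.975 in epinephrine (log2 fold change 0.68 ± 0.31 SE, adjusted p = 0.289 by edgeR). Without the 3 libraries with Gpx5 above 0.5% it passed (edgeR adjusted p = 0.0204).

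None of the 9 catalytic ADAMs classed as somatic passed the test. They include Adam28, which followed Gpx5 across libraries and whose log2 fold change had an SE of 1.92. Adam8, a sheddase of leukocytes, came nearest. It lay between 12.9 and 28.9 CPM in vehicle, with a median of 22.5, and between 25.2 and 58.9 CPM in epinephrine, with a median of 43.6. Its means were 22.1 ± 5.83 and 41.5 ± 13.9 CPM (log2 fold change 0.91 ± 0.25 SE, adjusted p = 0.0533 by edgeR), and the groups overlapped. With the replicate number as a block the adjusted p was 0.0248 by edgeR, and without the 3 libraries with Gpx5 above 0.5% it was 0.0037. It passed in 10 of 26 alternatives, and with listed age as a covariate its log2 fold change was -0.06. The leukocyte markers measured alongside overlapped between groups, the neutrophil list summing to 2.46 to 40.4 CPM in vehicle and 5.26 to 35.1 in epinephrine.

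The broad sheddases had log2 fold changes close to 0 and did not pass. Adam10, the alpha-secretase that also cleaves Notch, measured 97.4 ± 29.8 CPM in vehicle and 96.8 ± 31.6 in epinephrine (log2 fold change -0.01 ± 0.23 SE, adjusted p = 0.996 by edgeR). With listed age as a covariate the log2 fold change of Adam10 turned to 1.03 (edgeR adjusted p = 0.0291). Adam17, which releases tumour necrosis factor, measured 56.9 ± 5.02 and 59.3 ± 6.68 CPM (log2 fold change 0.06 ± 0.09 SE, adjusted p = 0.853 by edgeR). Adam15 measured 306 ± 69.97 and 306 ± 63.5 CPM (log2 fold change 0.00 ± 0.19 SE, adjusted p = 0.999 by edgeR). Of the 3 non-catalytic ADAMs, Adam23, a neuronal ligand receptor, was the most abundant, at 46.7 ± 11.1 and 44.03 ± 7.13 CPM (log2 fold change -0.09, edgeR adjusted p = 0.912). With a standard error of 0.09, these data resolve a smaller difference for Adam17 than for Adam10.

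Adam1a, whose protein pairs with that of Adam2, was the only called member of the testis and epididymis class, where 6 of 22 were tested. Adam1a (Entrez 280668, chr5:121518604-121521695) lay between 3.48 and 5.34 CPM in vehicle, with a median of 4.53, and between 1.58 and 2.79 CPM in epinephrine, with a median of 2.29. The groups did not overlap. The mean fell from 4.51 ± 0.609 to 2.30 ± 0.448 CPM (n = 6 each), to 51.0% of vehicle (log2 fold change -0.97 ± 0.16 SE, adjusted p = 0.00389 by edgeR). With listed age as a covariate the log2 fold change was -0.53 (edgeR adjusted p = 0.175), which ends the call, and in numbers 1 to 3 alone it was -0.80 (edgeR adjusted p = 0.347).

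Other gene models share exons with the GENCODE vM21 model of Adam1a, so what its count measures is uncertain. That model has 7508 exon bases, whereas the counted gene is 3092 bases long. A same-strand model, Gm42878, covers 63.7% of the 7508 bases, Mapkapk5 on the same strand 24.04%, and Tmem116 on the opposite strand 11.3%. Whether these overlaps reach the counted bases was not examined. Mapkapk5, a stress-activated kinase gene, measured 47.4 ± 7.43 and 45.9 ± 7.97 CPM (log2 fold change -0.05, edgeR adjusted p = 0.94). The Pearson r of log2 CPM between Adam1a and Gpx5 was 0.65 within vehicle and 0.58 within epinephrine, and the Spearman rho was 0.29 over the 12 libraries.

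Of 60 members with at least 30 counts, 2 followed Gpx5 across libraries: Adam28 and Adam7. The criterion was a Pearson r of log2 CPM of at least 0.8 within each group of 6 and a Spearman rho of at least 0.8 over all 12. Both genes lie near each other on chromosome 14 (chr14:68497336-68533689 for Adam7, chr14:68604998-68655889 for Adam28). Adam7 encodes an epididymal ADAM without a catalytic site that is passed to sperm. Adam28 encodes a catalytic ADAM known from lymphocytes and the epididymis. The smallest of the 3 correlations was 0.986 for Adam28 and 0.838 for Adam7, just inside the criterion. Just outside it was Adam10, with 0.738. These are descriptions over points that share libraries and depth.

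Adam28 kept a near constant ratio to Gpx5. Its reads in vehicle 1 to 6 were 62, 52856, 12214, 1715, 130 and 13, beside 552, 507803, 111913, 16960, 1307 and 129 for Gpx5. In epinephrine 1 to 6 they were 32187, 40276, 1047, 205, 117 and 35, beside 285906, 295079, 8527, 1766, 989 and 227 for Gpx5. While Adam28 spanned 4066-fold, its reads per 100 Gpx5 reads stayed between 9.95 and 15.4. The ratio was 9.95 to 11.2 in vehicle and 11.3 to 15.4 in epinephrine. The groups did not overlap, but they nearly met, at 11.23 in vehicle 1 and 11.26 in epinephrine 1. The vehicle 1 ratio rests on 62 Adam28 reads, so a difference of very few reads would make the groups overlap. At the low end these ratios rest on 13 Adam28 reads in vehicle 6 and 35 in epinephrine 6. The lack of overlap was noticed after the values were seen and was not tested. In the model the log2 fold change of Adam28 was 0.10 (SE 1.92, adjusted p = 0.994 by edgeR), and with log2 CPM of Gpx5 as a covariate it was 0.26 (SE 0.09, adjusted p = 0.0885 by edgeR). The log2 fold change of Adam28 with listed age as a covariate was 13.38 (edgeR adjusted p = 0.0105). The groups share no listed age, so that fit extends a trend with age beyond each group. The Adam28 medians were 27.8 CPM in vehicle and 26.5 CPM in epinephrine.

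Adam7 followed Gpx5 less closely. Its reads in vehicle 1 to 6 were 19121, 199235, 47122, 6589, 539 and 64, and in epinephrine 1 to 6 they were 155706, 138530, 23523, 1158, 615 and 263. Its reads per 100 Gpx5 reads had a median of 52.0 and stood apart in vehicle 1 (3464) and epinephrine 3 (276). The same libraries were high in Lcn5, another secreted epididymal protein gene, with 6365 Lcn5 reads per 100 Gpx5 reads in vehicle 1 and 490 in epinephrine 3. Vehicle 1 held 552 Gpx5 reads beside 31207 reads of Crisp1, a sperm-coating epididymal protein gene. The log2 fold change of Adam7 was 0.22 (SE 1.71, adjusted p = 0.981 by edgeR), with a standard error too large to resolve even a several-fold difference. For Adam7, listed age as a covariate gave a log2 fold change of 13.35 (edgeR adjusted p = 0.00291). The groups share no listed age, so that fit extends a trend with age beyond each group. The Adam7 medians were 447 CPM in vehicle and 520 CPM in epinephrine.

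**Figure D4:**
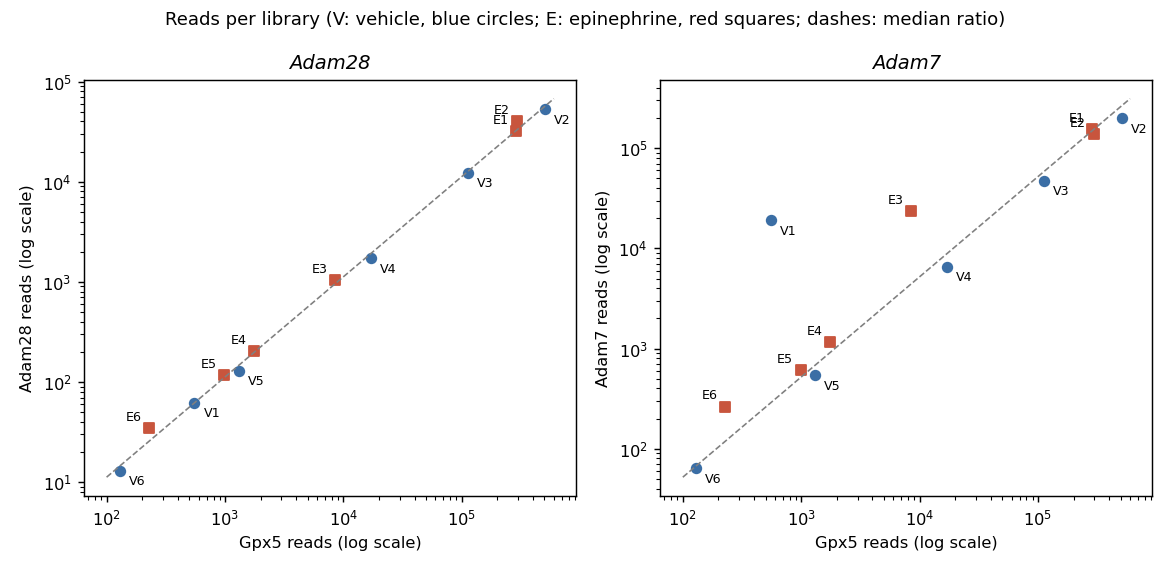
Reads of Adam28 (left) and Adam7 (right) against reads of Gpx5 in each library, both on log scales, with vehicle as blue circles, epinephrine as red squares and a dashed line at the median ratio. Adam28 lies along the line over the whole range, and for Adam7 vehicle 1 and epinephrine 3 lie above it.

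The sperm ADAMs were low and did not follow Gpx5. Adam3, a sperm surface protein needed for passage into the oviduct, gave 22, 49, 10, 13, 5 and 5 reads in vehicle 1 to 6 and 54, 30, 84, 3, 14 and 17 in epinephrine 1 to 6. Its highest count was in epinephrine 3 and its lowest in epinephrine 4, so the groups overlapped (log2 fold change 1.13 ± 0.77 SE, adjusted p = 0.55 by edgeR). A comparison with Prm2, a protamine gene of sperm nuclei, was added after the values were seen. By the same criterion 4 members followed Prm2: Adam7, Adam5, Adam3 and Adam18. Adam18 held only 42 reads in total, with 4, 6, 1, 0, 0 and 0 in vehicle 1 to 6, so its correlation rests on few reads. Prm2 gave 993, 876 and 739 reads in epinephrine 1 to 3 and 303, 932 and 198 in vehicle 1 to 3, against 0 to 29 reads in vehicle 4 to 6 and 21 to 185 in epinephrine 4 to 6. The 7 testis germ cell genes tested were not called different between the groups. All 7 had a log2 fold change above 0, from 0.97 to 1.36, with a median of 1.04. Over all tested genes, 50.2% lay below 0. The summed level of the 9 genes listed ran from 0.266 to 84.2 CPM in vehicle, with a median of 9.48. In epinephrine it ran from 2.90 to 124 CPM, with a median of 45.8.

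The inhibitors were measured by a list of 7 genes, of which 6 were tested and 0 called by edgeR, with a median log2 fold change of 0.07. At an unadjusted p under 0.05 the count was 2 of 6, beside 17.2% of all tested genes. Timp3, the matrix-bound inhibitor of ADAM17 and of the aggrecanases, was 1 of these. It lay between 367 and 734 CPM in vehicle and between 565 and 1433 CPM in epinephrine, with overlap from epinephrine 1 and vehicle 1, 3, 4, 5 and 6. Its means were 611 ± 129 and 1072 ± 342 CPM (log2 fold change 0.81 ± 0.24 SE, adjusted p = 0.0765 by edgeR). Without epinephrine 1 the adjusted p by edgeR was 0.0161, and without the 3 libraries with Gpx5 above 0.5% the log2 fold change was 0.96 (edgeR adjusted p = 0.000229). DESeq2 also called Timp3, with an adjusted p of 0.0101.

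The other TIMP genes did not pass. Timp1, the inducible soluble inhibitor, measured 8.34 ± 6.10 CPM in vehicle and 4.29 ± 1.26 in epinephrine (log2 fold change -0.96 ± 0.43 SE, adjusted p = 0.277 by edgeR), with vehicle 5 and 6 the highest. Timp2, which joins MMP14 in activating pro-MMP2, measured 940 ± 227 and 818 ± 210 CPM (log2 fold change -0.20, edgeR adjusted p = 0.789). Timp4, an inhibitor abundant in fat and heart, measured 220 ± 66.1 and 276 ± 142 CPM (log2 fold change 0.32, edgeR adjusted p = 0.78). Epinephrine 4 to 6 held the 3 highest Timp4 levels, and in numbers 4 to 6 alone the log2 fold change was 0.63 (edgeR adjusted p = 0.0203).

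**Figure D5:**
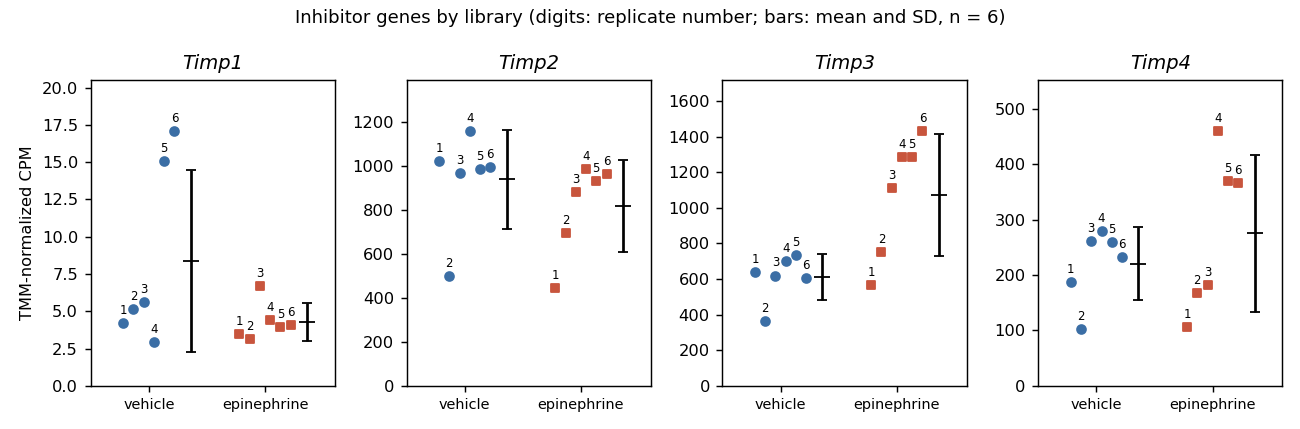
TMM-normalized CPM of the 4 TIMP genes in each library, with the replicate number above each point and the mean and SD of 6 libraries beside each group. For Timp3 the lowest epinephrine points are replicates 1 and 2, and for Timp2, Timp3 and Timp4 the lowest vehicle point is replicate 2.

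Of the 12 matrix substrates listed, 10 were tested. Of these 10, 1 was higher, beside 2.65% of all tested genes, and the list share was not tested. The higher gene was Thbs1, which encodes thrombospondin-1, an ADAMTS1 substrate. It measured 89.1 to 352 CPM in vehicle and 816 to 2601 CPM in epinephrine, with no overlap. The means were 229 ± 116 and 1667 ± 774 CPM (log2 fold change 2.86 ± 0.44 SE, adjusted p = 0.00282 by edgeR). With listed age as a covariate the log2 fold change of Thbs1 was 2.03 (edgeR adjusted p = 0.133), which ends the call. Versican, Vcan, measured 38.2 ± 7.93 and 47.4 ± 13.3 CPM (log2 fold change 0.31, edgeR adjusted p = 0.471). The median over the list was 0.13.

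Genes of proenzyme activation and the plasminogen system were measured as well. Plaur, the urokinase receptor, measured 18.4 ± 9.69 and 40.9 ± 13.4 CPM (log2 fold change 1.15 ± 0.36 SE, adjusted p = 0.0981 by edgeR). With the replicate number as a block its adjusted p was 0.0248 by edgeR. Furin, which removes the propeptides of ADAM, ADAMTS and membrane-type MMP proteins, measured 117 ± 6.41 and 131 ± 12.6 CPM (log2 fold change 0.16, edgeR adjusted p = 0.266).

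The ADAMTS-like genes, which share the ancillary domains but not the protease, held 1 called gene of 7 (14.3%), beside 6.23% of all tested genes. Adamtsl2, which binds fibrillin and a TGF-beta binding protein, rose from 3.14 ± 0.982 to 6.88 ± 1.28 CPM (log2 fold change 1.13 ± 0.20 SE, adjusted p = 0.00642 by edgeR). Vehicle 2 (5.10 CPM) was above epinephrine 6 (4.87 CPM), and the other libraries were apart. Of 9 partners of ADAM10 and ADAM17, 8 were tested and 0 called by edgeR, with 1 of the 8 at an unadjusted p under 0.05, beside 17.2% of all tested genes, namely Frmd8 (log2 fold change -0.29, edgeR adjusted p = 0.24). The tolloid and meprin relatives had 2 of 5 tested and 0 called by edgeR, with 0 at an unadjusted p under 0.05. Bmp1, the procollagen C-proteinase, had a log2 fold change of -0.18 (edgeR adjusted p = 0.707).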

How the data were processed

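RNA sequencing libraries of epididymal fat from 12 mice, 6 per group, were analysed; groups and replicate numbers come from the sample titles. The authors deposited whole-number counts of reads per gene, made with cutadapt, HISAT2 and featureCounts on build mm10, with FastQC and DESeq2 also listed and no versions, per the submitters' processing notes. Per the labels' protocols, libraries came from a SMARTER mRNA-Seq kit. Which strand setting and annotation were used for counting is not stated in those notes. The authors also deposited variance-stabilized values, close to log2 units, which cover 20185 of the 27179 genes and served only in an alternative. The 1312 identifiers with no symbol, 0.253% to 0.315% of counts, stayed in library sizes and tests. No 2 of 66 library pairs held identical counts.

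Genes passed edgeR's filterByExpr (minimum count 10, minimum total 15). TMM factors scaled the libraries, and edgeR's robust quasi-likelihood F test compared the groups, with edgeR 4.0.16 and limma 3.58.1 in R 4.3.3. Adjusted p-values are Benjamini-Hochberg over 16175 genes, with a threshold of 0.05. The SE is the log2 fold change divided by the square root of F. Log2 CPM used a prior count of 1. The test was checked on simulated counts. Mice are separate animals per the labels.

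For each of the 6 shared replicate numbers, the deviations of both libraries from their group means correlated positively over genes (0.262 to 0.799, all above the limit of 0.1 for pairing), and 3 of 12 libraries correlated best with their own number. The comparison used no block, and the block is an alternative. Members, lists and tests were chosen with earlier results of these data known. Named were called members, those following Gpx5, the most abundant member of each role, Adam10, Adam17, Adamts1, Adamts4, Mmp2, Mmp9, Mmp14, the TIMP genes and up to 4 genes of each list by p. A result that this rule also gives is left out here. Others are named because an alternative changes their call, as neighbours or as examples, picked once their values were known. Marker lists not described, namely fibroblast, mesothelium, endothelium, smooth muscle and skeletal muscle, held 0 called genes by edgeR, with 2 at an unadjusted p under 0.05 beside 17.2% of all tested genes.

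The alternatives tried comprised scaling by RLE, upper quartile or library size, 2 other filters, DESeq2 1.42.0, limma-voom, limma on the deposited values, the block, listed age or Gpx5 as a covariate, subsets of libraries and a threshold of 0.01.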

Additional observations from a re-analysis of the deposited data

Results flagged for a closer look

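In 8 of 64 groups of 6 libraries looked at, over 32 genes, a single library lay far from the rest by Dixon's criterion. Chance alone meets it in about 1 group in 20 when values are normally distributed. It was applied to CPM without logs, so that rate does not hold for genes that span orders of magnitude, such as Adam7 and Adam28. Of these, 7 concern vehicle 2, the library with the highest share of Gpx5. There Adam7 stood at 7201 CPM, with the other vehicle libraries between 1.89 and 1559, and Adam28 at 1910 CPM, with the others between 0.384 and 404. Adam10 measured 157 CPM in vehicle 2 and 75.3 to 93.5 in the others. The sperm gene Adam5 measured 2.53 CPM there and 0.443 to 1.02 in the others. Lower in vehicle 2 than in the other vehicle libraries were Adamts2 at 63.0 CPM (others 131 to 151), Timp2 at 498 CPM (others 971 to 1162) and Timp3 at 367 CPM (others 607 to 734). Timp1 in epinephrine 3, at 6.68 CPM, was above the other epinephrine libraries, which held 3.11 to 4.44.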

How the results depend on the processing

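Beside 1 member higher and 3 lower, 3 were higher with RLE scaling, 2 with library-size scaling, 2 with the replicate block, 4 with Gpx5 as a covariate, 3 without the libraries with Gpx5 above 0.5%, 2 in numbers 4 to 6 alone, 4 with DESeq2 and 6 with limma-voom. Adamts1 was among the higher members in each of these, and 3 were lower in each except the replicate block, with 2. With listed age as a covariate 6 were higher, namely Adam3, Adam5, Adam7, Adam10, Adam28 and Adam32 and not Adamts1, 3 were lower (Adam19, Adamts7 and Mmp11), and the log2 fold change of Adam10 turned from -0.01 to 1.03 (edgeR adjusted p = 0.0291). The groups share no listed age, so the fit with listed age extends a trend beyond each group. In numbers 1 to 3 alone 0 were higher and 0 lower, as were 0 of all genes. Leaving out each library in turn gave 1 to 2 members higher, 2 of them without vehicle 6, epinephrine 1, epinephrine 2 or epinephrine 6, and 3 lower each time. The replicate block ended the call of Adamts15, added Adam8 and left those of Adamts1, Mmp11 and Adam1a. Adam28 and Adam7 followed Gpx5 under all 4 alternatives tried. Library-size scaling moved the median of all genes to -0.11, with 360 genes higher and 1448 lower against 428 and 579, RLE gave 461 and 447, and upper quartile scaling 388 and 766. For most other settings the number of all genes called is not given here. Their member counts are therefore not a result about the family. Members with few reads were not resolved at this depth. Over all alternatives, 1252 values of single members kept their side of the threshold (131 of them with another sign, uncalled in both), 30 came to pass it in the same direction, 9 no longer passed, and the 1 other is that of Adam10 with listed age.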
